A study of Mus musculus with 6 samples.

Results

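The 10 genes described here handle zinc in the islet: the metallothionein genes Mt1 and Mt2, the zinc exporter and loader genes Slc30a8, Slc30a1, Slc30a5 and Slc30a7, the zinc importer genes Slc39a6, Slc39a7 and Slc39a14, and the zinc-sensing transcription factor gene Mtf1. They were chosen by name, and all 10 were found among the 34745 genes of the deposited table. Poly-A RNA of islets isolated from C57BL/6 mice at the age of 8 weeks was sequenced in 6 libraries, 2 per group. The KO+DNMT3A libraries come from βRapKO islets with expression of Dnmt3a, a DNA methyltransferase gene; the series design writes this as LvDnmt3a and does not spell out the prefix. The KO libraries come from βRapKO islets without it, so both of these groups carry the knockout. βRapKO is known as the name of mice that lack Raptor, the mTORC1 subunit encoded by Rptor, in beta cells, although the labels give only the short name. The WT libraries come from wild-type islets. The deposited names of the KO and WT libraries include GFP without an explanation. The promoter that drove any recombinase and the number of mice behind each library are not given in the sources used here.

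Zinc crystallizes with insulin in the secretory granules of beta cells, which makes these cells among the most zinc-rich of the body. SLC30 proteins (ZnT) move zinc out of the cytosol into vesicles or out of the cell, and SLC39 proteins (ZIP) move it into the cytosol from outside or from organelles. Metallothioneins are small cysteine-rich proteins that buffer zinc in the cytosol, and MTF1 senses free zinc and binds metal response elements in the promoters of Mt1, Mt2 and Slc30a1.

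Promoter sequences of the 3 classic MTF1-regulated genes are shown because they carry the element by which MTF1 reads zinc. Each is the 250 bases before the RefSeq start on GRCm38.p6, plus strand, with capitals marking the core of the metal response element on either strand, searched as TGCACNC and TGCGCNC. Mt1 lies at chr8:94178839-94179088, Mt2 at chr8:94172368-94172617 and Slc30a1 at chr1:191906531-191906780.
Mt1: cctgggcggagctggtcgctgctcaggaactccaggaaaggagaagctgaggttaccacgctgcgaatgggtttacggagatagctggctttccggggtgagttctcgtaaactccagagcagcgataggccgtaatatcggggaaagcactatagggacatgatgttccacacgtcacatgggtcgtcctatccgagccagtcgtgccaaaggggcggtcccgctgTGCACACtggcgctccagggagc
Mt2: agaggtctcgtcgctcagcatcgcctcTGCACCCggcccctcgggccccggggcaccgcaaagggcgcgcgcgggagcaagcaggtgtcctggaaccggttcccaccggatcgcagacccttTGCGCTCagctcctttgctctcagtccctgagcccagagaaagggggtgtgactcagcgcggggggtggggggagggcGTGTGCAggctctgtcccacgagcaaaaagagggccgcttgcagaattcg
Slc30a1: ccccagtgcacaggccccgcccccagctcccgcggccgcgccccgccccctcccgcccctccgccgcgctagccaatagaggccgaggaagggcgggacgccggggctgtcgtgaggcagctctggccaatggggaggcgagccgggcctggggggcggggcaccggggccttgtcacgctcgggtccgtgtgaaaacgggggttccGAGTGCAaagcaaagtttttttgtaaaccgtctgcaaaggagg

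Over the full 300-base RefSeq window, which adds 50 bases after the start, Mt2 held 4 cores, Mt1 held 3 and Slc30a1 held 2, with no overlap between cores. Of the Mt1 cores only 1 lies in the printed bases, and those at bases 3 and 21 lie after the start used. Mt1 has 3 annotated transcripts, and bases outside this window were not searched. Of the members, 7 of 10 had a RefSeq window; Slc30a5 held 1 core, and Slc30a7, Slc39a7 and Mtf1 held 0. Among all 32851 windows of the same length 25.7% held at least 1 core and 1.97% held 3 or more. A match is a run of letters in the window and says nothing of binding in these islets.

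The libraries differed in depth and in beta cell RNA. The values are FPKM (fragments scaled to transcript length and library size), and the step between low values implies from 780504 to 1920397 fragments assigned to genes in 5 libraries but about 244735 in WT replicate 1. KO replicate 2 and WT replicate 1 were poor in insulin transcripts: Ins1 and Ins2 made up 0.109% of the summed FPKM in KO replicate 2 and 0.170% in WT replicate 1, against 16.5% to 30.5% in the others. Mitochondrially encoded genes made up 50.9% of the sum in KO replicate 2, 44.8% in WT replicate 1 and 16.5% to 26.5% in the others. The islet hormone genes Gcg, Sst and Ppy were present in all 6 libraries. Within KO and within WT, however, Sst and Ppy were lower in the insulin-poor library. Of 5 acinar markers only Cela1 was above 0 in any. Rptor itself read 0.71 and 1.93 FPKM under the KO+DNMT3A label, 0.38 and 1.51 FPKM under the KO label, and 0.80 and 1.06 FPKM under the WT label, so it was not lower in every library of the knockout labels, and the groups are called by their labels only. Dnmt3a was 3.62 and 3.80 FPKM in KO+DNMT3A islets, 3.19 and 2.50 FPKM in KO islets, and 2.94 and 4.43 FPKM in WT islets. In bulk islets, fewer cells of a type and less RNA per cell cannot be told apart. Separate mice are not stated for the 2 libraries of a group, so each p-value rests on a spread that may be technical.

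Mt1 was the most abundant member, at 218 ± 94.8 FPKM over the 6 libraries (SD, n = 6), and it stood above Mt2 in 6 of 6 libraries. Mt2 (81.1 ± 33.7 FPKM) and Slc30a8 (80.7 ± 42.6 FPKM) did not differ beyond their spread, with Mt2 higher in 4 of 6 libraries. Slc39a7 followed at 29.4 ± 15.6 FPKM, below Slc30a8 in 6 of 6 libraries. Slc30a5 (10.9 ± 6.24 FPKM) and Slc39a6 (7.33 ± 3.31 FPKM) overlapped, and Slc39a6 was above Slc30a7 (2.51 ± 1.61 FPKM) in 6 of 6 libraries. The lowest were Mtf1 at 1.70 ± 0.57 FPKM, Slc39a14 at 1.17 ± 0.76 FPKM and Slc30a1 at 0.66 ± 0.44 FPKM, whose ranges overlapped. The cytosolic zinc buffers and the granule loader thus stood at the top of the order, and the zinc sensor and the plasma membrane exporter ZnT1 near or at its foot.

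**Figure D1:**
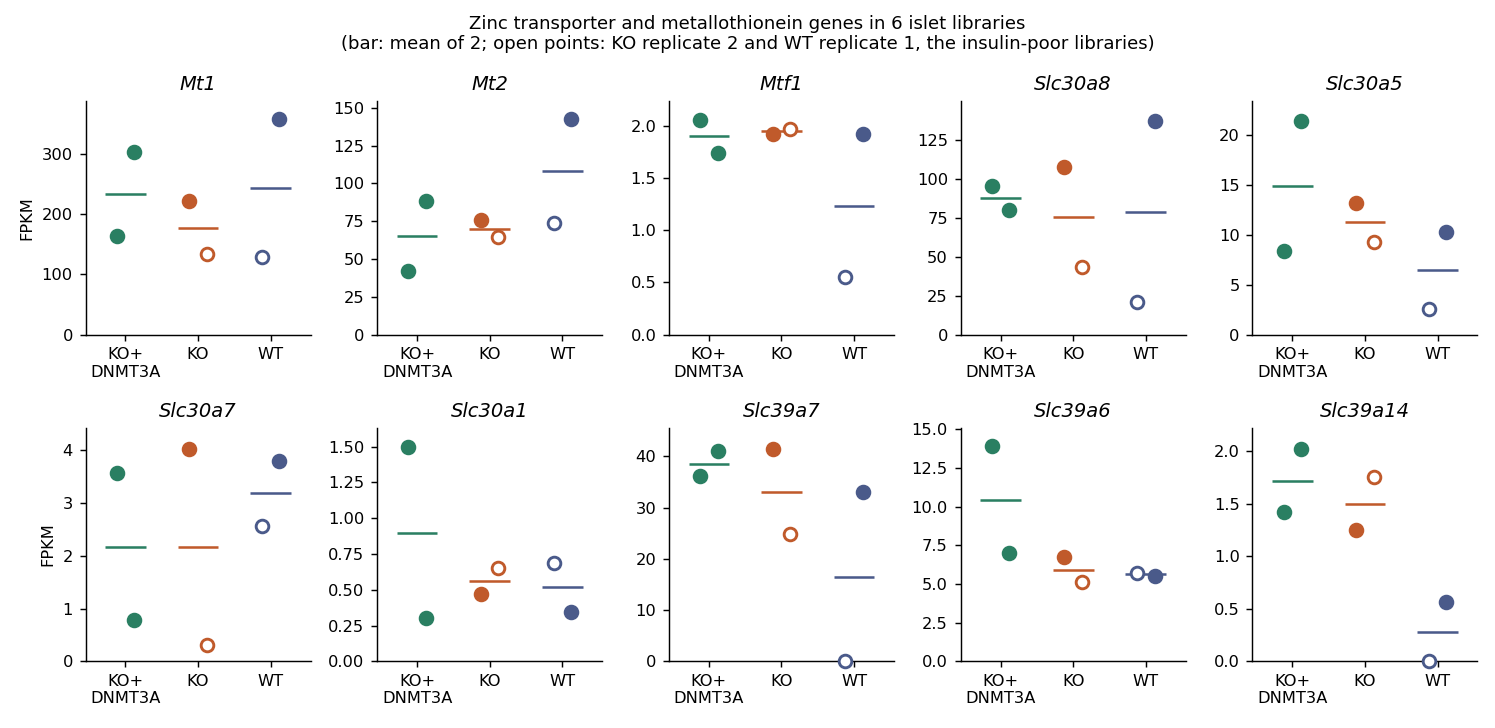
FPKM of each of the 10 genes (vertical axis, starting at 0, a scale of its own per gene) in the 2 libraries of each group, with a bar at the mean of 2. Open points are the insulin-poor libraries KO replicate 2 and WT replicate 1, which hold the lowest Mt1 and Slc30a8 values; for Slc30a8 these are 43.6 FPKM in KO and 20.7 FPKM in WT.

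Mt1 (ENSMUSG00000031765, chromosome 8, 94179082 to 94180327, GRCm38) and Mt2 (ENSMUSG00000031762, chromosome 8, 94172664 to 94173568) are protein-coding neighbours on the plus strand. Mt1 was 164 and 303 FPKM in KO+DNMT3A islets, 221 and 133 FPKM in KO islets, and 129 and 358 FPKM in WT islets. WT held both the lowest and the highest library, so the groups overlapped in every comparison. Mt2 was 42.1 and 88.5 FPKM in KO+DNMT3A islets, 75.7 and 64.5 FPKM in KO islets, and 73.5 and 142 FPKM in WT islets. The 2 KO libraries of Mt2 lay below the higher and around the lower WT library, and the groups overlapped here too. These short transcripts rest on few fragments in WT replicate 1: if the values are whole multiples of 1 fragment, the other 5 libraries hold 56 to 188 fragments of Mt1 and 28 to 77 of Mt2, and WT replicate 1 holds 17 and 10. The length this implies for Mt2, 556 bases, is longer than its longest annotated transcript of 511 bases. The exact Poisson interval for 17 fragments of Mt1 runs from 74.9 to 206 FPKM, which covers counting error only. An antisense gene, Gm45774, overlaps Mt2 in the annotation but has no entry of that name in the deposited table. Whether the counting used strand is not given in the sources used here.

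Slc30a8 (ENSMUSG00000022315, chromosome 15, 52295553 to 52335798) encodes ZnT8, the transporter that loads zinc into insulin granules. It was 95.4 and 79.9 FPKM in KO+DNMT3A islets, 107 and 43.6 FPKM in KO islets, and 20.7 and 137 FPKM in WT islets. The KO+DNMT3A libraries lay inside the range of KO, and KO lay inside the range of WT. The 2 low values are those of the insulin-poor libraries. It has a single annotated transcript of 1971 bases, and its values were whole fragments at that length: 361 and 176 in KO+DNMT3A, 302 and 67 in KO, and 10 and 263 in WT. The 10 fragments of WT replicate 1 allow 9.94 to 38.1 FPKM by the exact Poisson interval, which lies below the interval of WT replicate 2, 121 to 155 FPKM.

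The gap of Slc30a8 between the 2 libraries of a group was smaller than that of the granule cargo. KO replicate 1 exceeded KO replicate 2 by 2.47-fold for Slc30a8, 286-fold for Ins1 and 65.0-fold for Iapp, the gene of the co-secreted peptide amylin. WT replicate 2 exceeded WT replicate 1 by 6.61-fold for Slc30a8, 156-fold for Ins1 and 65.6-fold for Iapp. For each 1000 FPKM of Ins1 there were 1.46 and 0.80 FPKM of Slc30a8 in KO+DNMT3A, 0.90 and 105 FPKM in KO islets, and 32.0 and 1.36 FPKM in WT. These folds describe pairs of single libraries and carry no test. Other beta cell markers spanned both sides of Slc30a8: the fold was 9.87 in KO and 61.0 in WT for Ucn3, a maturity marker, but 1.82 in KO and 3.50 in WT for Nkx6-1, smaller than that of Slc30a8 in both. The summed level of the 7 beta cell markers, made up almost wholly of Ins1, Ins2 and Iapp, was 124324 and 151969 FPKM in KO+DNMT3A islets, 217781 and 1606 FPKM in KO islets, and 1539 and 165934 FPKM in WT islets. Mafa was listed at 0 in KO replicate 2, and Slc2a2 and Mafa in WT replicate 1. The alpha cell hormone gene Gcg was 1623 and 2454 FPKM in KO replicates 1 and 2, and 1245 and 1197 FPKM in WT replicates 1 and 2. Ttr, another gene of the 5 alpha cell markers, went with the insulin genes, at 360 and 77.8 FPKM in KO replicates 1 and 2, and at 23.5 and 305 FPKM in WT replicates 1 and 2. The delta cell hormone gene Sst was 4873 and 2736 FPKM in KO replicates 1 and 2, and 443 and 2560 FPKM in WT replicates 1 and 2. Ppy, of PP cells, was 18361 and 8399 FPKM in KO replicates 1 and 2, and 1178 and 6511 FPKM in WT replicates 1 and 2. Like Slc30a8, both were lower in the insulin-poor library of each group. Pyy was lower there too, but Hhex, another delta and PP marker, was higher. The part of cell makeup in the Slc30a8 values was not tested.

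By closeness of their centred log2 values over the 6 libraries, the 5 genes most like Slc30a8 among 2802 with a mean of at least 10 FPKM were Ttyh2, Rasd1, Wfs1, Mrpl36 and Atp2a2. Their mean absolute difference from Slc30a8 was 0.078 to 0.15 on the log2 scale. Wfs1 encodes wolframin of the endoplasmic reticulum and was 13.6 and 11.9 FPKM in KO+DNMT3A islets, 14.7 and 5.11 FPKM in KO islets, and 1.88 and 15.4 FPKM in WT islets. Atp2a2 encodes the calcium pump SERCA2, Rasd1 a small GTPase and Mrpl36 a mitochondrial ribosomal protein. The 5 genes most like Mt1 were Tbcb, Nkx6-1, Ndufv3, Krtcap2 and Prrg2, at 0.13 to 0.17. Nkx6-1, a beta cell transcription factor gene, was 66.2 and 160 FPKM in KO+DNMT3A islets, 90.1 and 49.4 FPKM in KO islets, and 43.0 and 151 FPKM in WT islets. With 6 libraries such likeness is a description of shared highs and lows.

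Slc30a5 (ENSMUSG00000021629, chromosome 13, 100802648 to 100833427) and Slc30a7 (ENSMUSG00000054414, chromosome 3, 115938973 to 116007406) encode ZnT5 and ZnT7, which load zinc into the Golgi and early secretory pathway. Slc30a5 was 8.36 and 21.4 FPKM in KO+DNMT3A islets, 13.2 and 9.27 FPKM in KO islets, and 2.57 and 10.3 FPKM in WT islets. WT replicate 1 was the lowest library and KO+DNMT3A replicate 2 the highest; the lowest rests on 2 fragments, with an interval of 0.31 to 9.29 FPKM. Slc30a7 was 3.57 and 0.78 FPKM in KO+DNMT3A islets, 4.03 and 0.30 FPKM in KO islets, and 2.57 and 3.80 FPKM in WT islets. It split the 2 libraries of both KO+DNMT3A and KO, so its 13.3-fold range over the 6 libraries, the widest of the 8 members above 0 everywhere, lay within groups. The lowest value, in KO replicate 2, amounts to only about 2.13 fragments on the longest transcript, so the size of this range is uncertain. WT replicate 1 holds about 5.68 fragments. Processed pseudogenes Gm43106 and Gm6649 lie inside Slc30a7, and how reads in them were counted is not given in the sources used here.

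Slc30a1 (ENSMUSG00000037434, chromosome 1, 191906767 to 191913247) encodes ZnT1, the exporter at the plasma membrane and, with the metallothioneins, a standard readout of MTF1. It was 1.50 and 0.30 FPKM in KO+DNMT3A islets, 0.47 and 0.65 FPKM in KO islets, and 0.69 and 0.35 FPKM in WT islets. If the values are whole multiples of 1 fragment, they correspond to 17 and 2 fragments in KO+DNMT3A, 4 and 3 in KO, and 1 and 2 in WT. The length this implies, 5919 bases, is longer than the longest annotated transcript of 5244 bases. On that transcript the values amount to 0.89 to 15.1 fragments. Only KO+DNMT3A replicate 1 stood out, and its partner held about 2 fragments, so no difference between groups was detectable at this depth. It reached 1 FPKM in a single library and was the 1 member of 10 that did not enter the test. Mtf1 (ENSMUSG00000028890, chromosome 4, 124802104 to 124849800) was 2.06 and 1.74 FPKM in KO+DNMT3A islets, 1.93 and 1.98 FPKM in KO islets, and 0.55 and 1.93 FPKM in WT islets. Apart from WT replicate 1, which holds about 1.02 fragments on the longest transcript, Mtf1 stayed between 1.74 and 2.06 FPKM.

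Slc39a7 (ENSMUSG00000024327, chromosome 17, 34028269 to 34031682, minus strand) encodes ZIP7, which releases zinc from the endoplasmic reticulum. It was 36.1 and 41.1 FPKM in KO+DNMT3A islets, 41.4 and 24.8 FPKM in KO islets, and listed at 0 and at 33.0 FPKM in WT islets. The 0 belongs to WT replicate 1, in which 3 fragments on the longest transcript would be worth 5.04 FPKM. The gene is overlapped on its own strand by Gm20427 (ENSMUSG00000092595, chromosome 17, 34026034 to 34031580), annotated as a processed transcript, which shares 2084 of the 2584 exon bases of Slc39a7, or 80.7%. Gm20427 was 0.84 and 0.24 FPKM in KO+DNMT3A islets, 0 and 0.35 FPKM in KO islets, and 39.7 and 1.11 FPKM in WT islets. So the library without Slc39a7 was the one with high Gm20427. Summed over both genes, the level was 36.9 and 41.3 FPKM in KO+DNMT3A islets, 41.4 and 25.1 FPKM in KO islets, and 39.7 and 34.1 FPKM in WT islets, and WT replicate 1 lay among the others. In WT replicate 1, 6 of the 656 genes that had at least 20 FPKM in each of the other 5 libraries were listed at 0, Slc39a7 among them; each of the other libraries had 0 such genes.

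**Figure D2:**
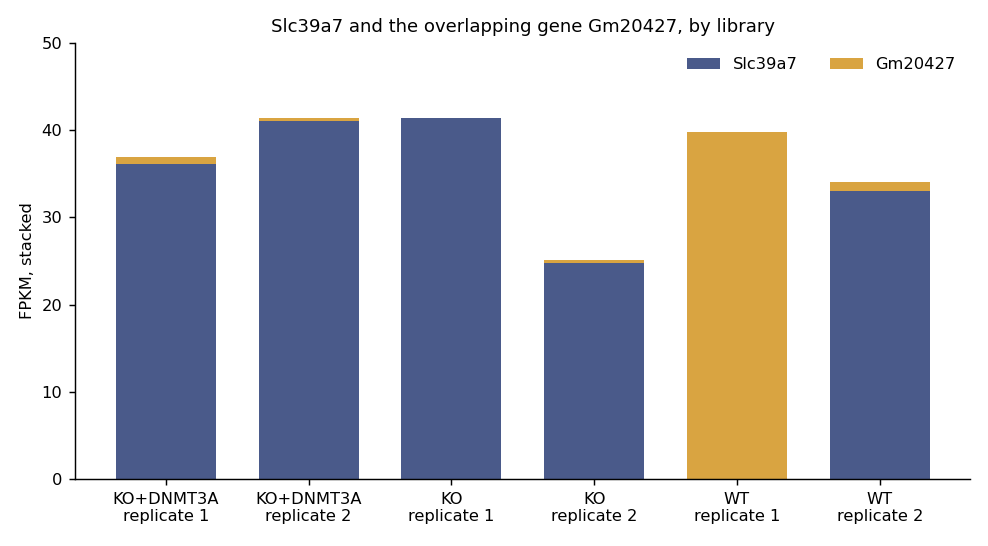
FPKM of Slc39a7 with the overlapping gene Gm20427 stacked on it (vertical axis, starting at 0), one bar per library. WT replicate 1 has 0 for Slc39a7 and 39.7 FPKM for Gm20427, and the summed bars range from 25.1 to 41.4 FPKM.

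Slc39a6 (ENSMUSG00000024270, chromosome 18, 24579881 to 24603817) and Slc39a14 (ENSMUSG00000022094, chromosome 14, 70303469 to 70351425) encode ZIP6 and ZIP14, importers at the plasma membrane; ZIP14 also carries iron and manganese. Slc39a6 was 13.9 and 6.97 FPKM in KO+DNMT3A islets, 6.72 and 5.12 FPKM in KO islets, and 5.71 and 5.54 FPKM in WT islets. Both KO+DNMT3A libraries were above all 4 others, the second of them by a narrow margin. The start of Elp2 overlaps that of Slc39a6 on the other strand; Elp2 was 26.1 and 15.4 FPKM in KO+DNMT3A islets, 20.1 and 12.9 FPKM in KO islets, and 11.7 and 11.8 FPKM in WT islets, and its part in the Slc39a6 values was not tested. Slc39a14 was 1.42 and 2.02 FPKM in KO+DNMT3A islets, 1.25 and 1.75 FPKM in KO islets, and listed at 0 and at 0.56 FPKM in WT islets. Every KO+DNMT3A and KO library was above both WT libraries. In WT replicate 1, however, 3 fragments on the longest transcript would be worth 2.40 FPKM, more than any value seen, and WT replicate 2 holds about 2.80 fragments.

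The groups were then compared gene by gene. Libraries labelled KO were first set against those labelled WT, from which they did not separate in Rptor. Among the 9 members tested, 6 had a higher and 3 a lower mean in KO, and 0 passed limma's test after Benjamini-Hochberg adjustment over all 13233 genes, where 0% of all genes passed (smallest adjusted p = 1). Before adjustment, p was under 0.05 for 0 of 9 members and for 240 genes, 1.81% of those tested. Slc39a14 was the 1 member whose groups did not overlap, with a higher level in KO, as for 9.36% of all genes; 0 members lay wholly lower in KO, against 10.5% of all genes. Its log2 fold change of FPKM plus 1 was 0.99 (SE 0.54, 95% interval -0.26 to 2.24, limma adjusted p = 1), and 2.62 with a pseudocount of 0.1. The Slc39a7 difference was 2.50 (SE 1.41), 4.14 with a pseudocount of 0.1, -0.039 without WT replicate 1, and -0.18 (SE 0.56) when Gm20427 was added to it, an alternative chosen after the values were seen.

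Slc30a5 had a difference of 0.93 (SE 0.74) between KO and WT, and it was 0.093 without WT replicate 1. The granule loader Slc30a8 had a difference of 0.34 (SE 0.93, 95% interval -1.81 to 2.50). Leaving out WT replicate 1 gave -0.99 and leaving out WT replicate 2 gave 1.68, so single libraries set its direction. Mt1 and Mt2 had lower means in KO, by differences of -0.32 (SE 0.73) and -0.54 (SE 0.65). For Mt1 the difference was 0.041 without KO replicate 2 and 0.41 without WT replicate 2, while for Mt2 it stayed lower without each library in turn (-1.01 to -0.072). Neither shift passed the test. The median difference over all 10 members was 0.20, beside 0.027 over all genes tested.

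**Figure D3:**
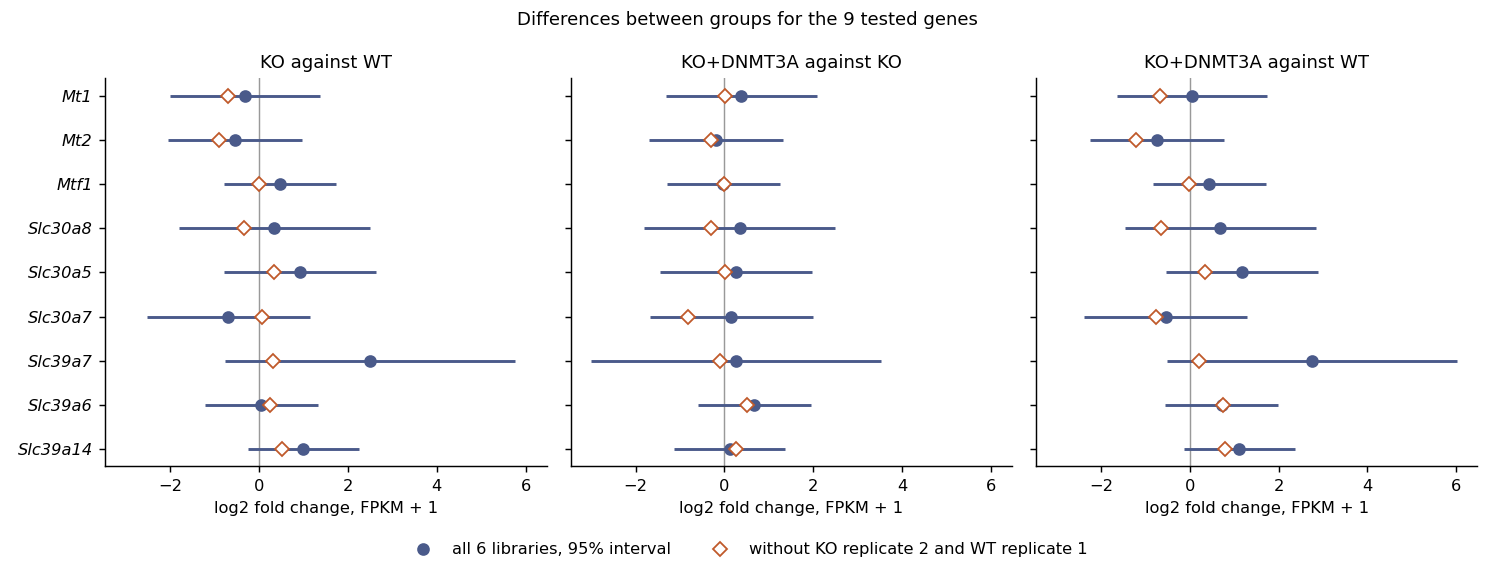
Log2 fold change of FPKM plus 1 (horizontal axis) for the 9 tested genes in each comparison, with the 95% interval of the limma fit; diamonds are the values without KO replicate 2 and WT replicate 1. Every interval covers 0, and the widest are those of Slc39a7, for which KO against WT is 2.50 with all libraries.

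Next, the libraries labelled KO+DNMT3A were set against those labelled KO. By their labels these differ in Dnmt3a expression, and the deposited names include GFP only for KO. Of the 9 members tested, 7 had a higher mean in KO+DNMT3A and 2 a lower one, and 0 passed (0% of all genes; smallest limma adjusted p = 1; 0 of 9 members and 1.11% of genes at an unadjusted p under 0.05). The importer gene Slc39a6 was the 1 member whose groups did not overlap, higher in KO+DNMT3A, as 17.2% of all genes were, and 0 members lay wholly lower, against 5.43% of all genes. Its log2 fold change was 0.67 (SE 0.55, 95% interval -0.61 to 1.94), and 0.21 without KO+DNMT3A replicate 1. Slc30a8 differed by 0.35 (SE 0.93), and by -0.30 without KO replicate 2. Mt1 differed by 0.38 (SE 0.73) and Mt2 by -0.19 (SE 0.65). Mtf1 differed by -0.028 (SE 0.55). The median over all 10 members was 0.23, close to the 0.19 of all genes tested; after median scaling these were 0.032 and -0.012.

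The libraries labelled KO+DNMT3A were also set against WT; this shares the KO+DNMT3A libraries with the comparison above and the WT libraries with the first. Of 9 members 7 had a higher mean in KO+DNMT3A and 2 a lower one, and 0 passed (0% of all genes; smallest limma adjusted p = 0.997; 0 of 9 members and 2.86% of genes at an unadjusted p under 0.05). Slc39a6, Slc39a7 and Slc39a14 were the members whose groups did not overlap, all higher in KO+DNMT3A, as 19.2% of all genes were, but the groups of Slc39a7 overlapped once Gm20427 was added; 0 members lay wholly lower, against 7.87% of all genes. Slc39a14 differed by 1.11 (SE 0.54, 95% interval -0.13 to 2.36, limma unadjusted p = 0.074), and by 2.80 with a pseudocount of 0.1. Slc39a6 differed by 0.72 (SE 0.55), and by 0.27 without KO+DNMT3A replicate 1. Slc39a7 differed by 2.76 (SE 1.41), by 4.41 with a pseudocount of 0.1, and by 0.084 when Gm20427 was added. Slc30a5 differed by 1.19 (SE 0.74), and by 0.35 without WT replicate 1. Slc30a8 differed by 0.69 (SE 0.93), and by -0.64 without WT replicate 1. Mt2 had the lower mean in KO+DNMT3A (-0.73, SE 0.65; -1.26 to -0.21 without each library in turn), and Mt1 was level (0.055, SE 0.73). The median over all 10 members was 0.57, against 0.23 over all genes tested; without WT replicate 1 they were 0.10 and 0.019.

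The rest of the zinc family was read from a list of 19 further SLC30, SLC39 and metallothionein genes. Of these, 11 entered the test and 5 were 0 in all libraries: the synaptic vesicle and mammary ZnT genes Slc30a3 and Slc30a2, Slc39a5, Slc39a12 and the epithelial metallothionein gene Mt4. None of the 11 passed in either direction in any comparison. In KO against WT 8 had a higher and 3 a lower mean, with a median log2 fold change of 0.24, beside 6933 higher, 6265 lower and a median of 0.027 over all genes tested. In KO+DNMT3A against KO these were 9 and 2 with a median of 0.36, beside 9022, 4208 and 0.19 over all genes. In KO+DNMT3A against WT they were 9 and 2 with a median of 0.44, beside 8571, 4652 and 0.23 over all genes. The most abundant was Slc39a1, the gene of the plasma membrane importer ZIP1, at 35.5 and 25.4 FPKM in KO+DNMT3A islets, 32.9 and 15.7 FPKM in KO islets, and 22.5 and 34.3 FPKM in WT islets. Slc39a13 and Slc39a9 encode ZIP proteins of the Golgi and secretory pathway. Slc39a13 was 4.58 and 6.95 FPKM in KO+DNMT3A islets, 4.32 and 6.95 FPKM in KO islets, and 7.78 and 8.13 FPKM in WT islets, and its libraries lay wholly lower in KO+DNMT3A and in KO than in WT without passing the test, beside 7.87% of all genes in KO+DNMT3A and 10.5% in KO. Slc39a9 was 9.56 and 4.62 FPKM in KO+DNMT3A islets, 8.72 and 2.70 FPKM in KO islets, and 1.56 and 5.11 FPKM in WT islets, and its groups overlapped.

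Slc30a6, whose product pairs with ZnT5 to form a zinc transporter of the Golgi, was 6.05 and 7.20 FPKM in KO+DNMT3A islets, 7.84 and 1.15 FPKM in KO islets, and listed at 0 and at 5.51 FPKM in WT islets. The lowest 2 libraries were again KO replicate 2 and WT replicate 1. KO replicate 2 holds 2 fragments of Slc30a6, and the 0 of WT replicate 1 allows up to 6.74 FPKM by the exact Poisson interval. The Slc30a6 difference was 1.58 (SE 0.99) in KO+DNMT3A against WT. Mt3, the growth-inhibitory metallothionein gene known from brain, followed the same split, at 7.74 and 13.3 FPKM in KO+DNMT3A islets, 11.7 FPKM and listed at 0 in KO islets, and listed at 0 and at 9.54 FPKM in WT islets. Its difference was 1.65 (SE 1.37) in KO+DNMT3A against KO and 1.78 (SE 1.37) in KO+DNMT3A against WT. Slc39a3, encoding the importer ZIP3, was 4.41 and 1.68 FPKM in KO+DNMT3A islets, 2.50 and 0.69 FPKM in KO islets, and listed at 0 and at 1.83 FPKM in WT islets, a difference of 1.18 (SE 0.73) in KO+DNMT3A against WT.

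Slc39a4, the intestinal zinc importer gene, showed another pattern. It was 8.66 FPKM and listed at 0 in KO+DNMT3A, listed at 0 in both KO libraries, and in WT islets 16.5 FPKM and listed at 0. The 2 libraries above 0, KO+DNMT3A replicate 1 and WT replicate 1, also had the highest sum of 6 duct cell markers, at 959 and 2448 FPKM, against 86.8 to 182 FPKM in the other 4. The same libraries had the highest sum of 6 stroma markers, at 332 and 1038 FPKM, against 140 to 238 FPKM in the other 4. Of these markers Col1a1, Col1a2 and Dcn were highest in these 2 libraries, but Col3a1, Lum and Pdgfrb were not. Lum was 9.29 FPKM in KO+DNMT3A replicate 1, against 17.9 and 12.3 FPKM in KO islets. All markers of both lists were above 0 in every library. The part of these cell types in the Slc39a4 values was not tested. Slc30a4, encoding a vesicular ZnT, was 3.31 and 1.11 FPKM in KO+DNMT3A islets, 2.53 and 1.76 FPKM in KO islets, and listed at 0 and at 1.66 FPKM in WT islets. Its libraries lay wholly higher in KO than in WT (0.94, SE 0.67), beside 9.36% of all genes. In WT replicate 1, however, 3 fragments on the longest transcript would be worth 2.25 FPKM, more than the value of KO replicate 2. The margin of KO replicate 2 over WT replicate 2 was narrow, at about 7.48 and 8.84 fragments on the longest transcript.

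**Figure D4:**
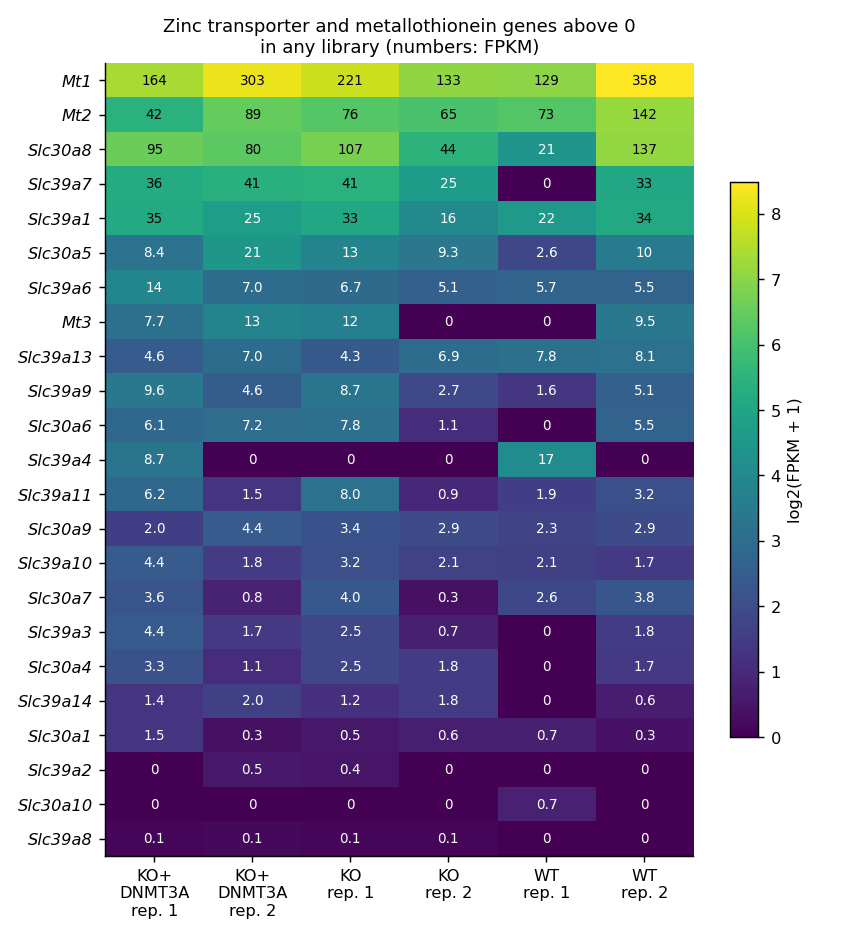
Log2 of FPKM plus 1 (colour) for the SLC30, SLC39 and metallothionein genes above 0 in at least 1 library, ordered by mean level, in the 6 libraries, with FPKM printed in each cell. Slc30a8, Slc30a6 and Mt3 are lowest in KO replicate 2 and WT replicate 1, and Slc39a4 is above 0 only in KO+DNMT3A replicate 1 and WT replicate 1. In KO replicate 2 and WT replicate 1, Slc30a6 and Mt3 rest on at most 2 fragments.

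Genes that respond to the same signals as the metallothioneins were read beside them. Of 5 further genes reported as MTF1 targets, 5 were tested and 0 passed in any comparison. Gclc, encoding the catalytic subunit of glutathione synthesis, was 3.35 and 7.32 FPKM in KO+DNMT3A islets, 4.30 and 8.98 FPKM in KO islets, and 1.19 and 4.50 FPKM in WT islets. Selenow, a selenoprotein gene, was 210 and 215 FPKM in KO+DNMT3A islets, 153 and 385 FPKM in KO islets, and 389 and 255 FPKM in WT islets. Unlike Mt1, Selenow was highest in the 2 insulin-poor libraries. Ndrg1, also of this list, was lowest in them, as Mt1 was, at 4.999 FPKM in KO replicate 2 and 4.35 FPKM in WT replicate 1. Gclc, Csrp1 and Slc39a10, the rest of the list, did not have both of these libraries at the same end. Of 5 glucocorticoid-responsive genes 4 were tested and 0 passed; Fkbp5, a standard target of the receptor, was 1.45 and 1.20 FPKM in KO+DNMT3A islets, 1.39 and 1.27 FPKM in KO islets, and 0.73 and 1.29 FPKM in WT islets.

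The last list held 6 acute-phase and IL-6 response genes and was chosen with earlier results of these data known, so its counts are a description only. In KO against WT 3 had a higher and 2 a lower mean, with a median log2 fold change of 0.068. In this comparison 1 lay wholly lower in KO (10.5% of all genes). In KO+DNMT3A against KO 6 had a higher mean, with a median of 1.56, and 5 lay wholly higher (17.2% of all genes). There limma's adjusted test passed 0, and 3 had an unadjusted p under 0.05 (1.11% of all genes). In KO+DNMT3A against WT 6 lay wholly higher (19.2% of all genes), with a median of 1.31, and 0 passed. Socs3, the feedback inhibitor of IL-6 signalling, was 21.1 and 20.1 FPKM in KO+DNMT3A islets, 16.2 and 4.68 FPKM in KO islets, and 6.21 and 8.12 FPKM in WT islets. Saa3, an acute-phase protein gene, was 189 and 199 FPKM in KO+DNMT3A islets, 34.3 and 67.6 FPKM in KO islets, and 92.3 and 75.4 FPKM in WT islets. Mean levels of macrophage and duct markers also differed between these groups, but 0 of these markers passed limma's adjusted test. The summed level of 6 macrophage markers was 211 and 138 FPKM in KO+DNMT3A islets, 462 and 296 FPKM in KO islets, and 474 and 466 FPKM in WT islets, with all 6 above 0 in every library. Their mean was lower in KO+DNMT3A for 6 of 6 against KO (median -1.06, 4 wholly lower, beside 5.43% of all genes) and for 6 of 6 against WT (median -1.76, 4 wholly lower, beside 7.87%). The 6 duct markers had a higher mean in KO+DNMT3A than in KO for 6 of 6 (median 1.69, 0 wholly higher, beside 17.2% of all genes). Against WT, however, 2 had a higher and 4 a lower mean in KO+DNMT3A (median -0.18, 0 wholly higher, beside 19.2%). Their summed level was 959 and 140 FPKM in KO+DNMT3A islets, 182 and 86.8 FPKM in KO islets, and 2448 and 175 FPKM in WT islets. Only KO+DNMT3A replicate 1 thus stood above both KO libraries. The part of cell makeup in the acute-phase values was not tested.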

How the data were processed

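The deposited table gives FPKM for each gene, per the file headers. The submitters' processing notes name HISAT2 2.0.4, edgeR, StringTie 1.3.0 and the build mm10, without their roles. Symbols, positions and transcript lengths came from GENCODE M21 (GRCm38/mm10), matched by gene identifier, which left 401 of 34745 genes with no symbol. Promoter sequences came from RefSeq on GRCm38.p6. Depth was inferred from genes with 1 annotated transcript, of whose values of at most 20 fragments 84.3% to 91.7% were whole to within 0.01; whole fragments are given for a member only where the implied length was within 15% of an annotated transcript. The 13233 genes that reached 1 FPKM in 2 or more libraries entered 1 limma 3.58.1 fit (R 4.3.3) of log2(FPKM + 1) over all 6 libraries, trended and robust, two-sided, with Benjamini-Hochberg adjustment at 0.05 per comparison. A fold change refers to FPKM plus 1, which understates changes of low genes. With 2 against 2 libraries an exact permutation test cannot reach 0.05, so none was run. On simulated data the fit returned the changes put in on average, but at the spread of these libraries it called none of the changed genes, and only at a much smaller spread did it call most of them; a lack of calls here therefore does not show a lack of change. The members and lists were chosen with earlier results of these data known. Named genes are the members, those of the other zinc genes with the 4 smallest p per comparison or the 4 highest means, the 5 nearest in pattern to Slc30a8 and Mt1, and context genes; the Gm20427 values, Elp2, Iapp and the list members named were chosen after their values were seen. Other software was matplotlib 3.10.9, scipy 1.17.1, pandas 2.3.3, numpy 2.4.6 and Python 3.11.15.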

Additional observations from a re-analysis of the deposited data

How the results depend on the processing

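The count of genes passing was 0 in all 3 comparisons under the 18 alternatives, and of 477 tests of members under them 0 passed while 40 changed direction. Quantile normalization gave -0.15 for Slc30a7 and -0.069 for Slc39a14 in KO+DNMT3A against KO, and -0.023 for Mt1 and -0.071 for Mtf1 in KO+DNMT3A against WT. Median scaling gave -0.048 for Slc30a7, -0.080 for Slc39a14 and, against WT, -0.15 for Mt1. Rescaling without mitochondrial and insulin genes gave -0.00082 for Slc39a6 in KO against WT, and adding Gm20427 gave -0.18 for Slc39a7 there. Leaving out KO replicate 2 and WT replicate 1 together gave -0.35 for Slc30a8, 0.068 for Slc30a7 and -7.81e-05 for Mtf1 in KO against WT, -0.30 for Slc30a8, -0.82 for Slc30a7 and -0.10 for Slc39a7 in KO+DNMT3A against KO, and -0.68 for Mt1, -0.64 for Slc30a8 and -0.016 for Mtf1 in KO+DNMT3A against WT; it leaves 1 KO and 1 WT library, each assumed, like the lone library whenever 1 is left out, to vary like the other groups. Leaving out 1 library at a time, the ranges in KO against WT were -0.99 to 1.68 for Slc30a8, -0.11 to 0.22 for Slc39a6, -1.06 to 0.41 for Mt1, -1.67 to 0.28 for Slc30a7 and -0.039 to 5.05 for Slc39a7. In KO+DNMT3A against KO they were -0.72 to 0.34 for Mt2, -0.82 to 1.13 for Slc30a7, -0.063 to 0.82 for Mt1, -0.37 to 0.89 for Slc30a5, -0.037 to 0.28 for Slc39a14, -0.11 to 0.052 for Mtf1, -0.30 to 0.99 for Slc30a8 and -0.10 to 0.61 for Slc39a7. In KO+DNMT3A against WT they were -0.68 to 0.79 for Mt1, -1.22 to 0.14 for Slc30a7, -0.64 to 2.02 for Slc30a8 and -0.016 to 0.90 for Mtf1. The cause of these reversals was not tested; none of the values had passed before. With the replicate block, by the numbers of the sample titles, the count of calls was 0 in each comparison. Correlations of deviations between libraries of the same title number were -0.27, 0.32 and 0.10. The deposited library names carry other numbers, with 3 in WT replicate 1, KO replicate 2 and KO+DNMT3A replicate 2. The crossed block, chosen after the values were seen, places these libraries together and also gave 0 calls. What either number stands for is not given in the sources used here. A 5 FPKM filter leaves out Slc30a1, Slc30a7, Slc39a14 and Mtf1. Depth limits WT replicate 1 most, where 1 fragment on 2 kb is worth 2.04 FPKM.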

Other observations

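The ratio of Mt1 to Mt2 within a library, which no scaling of the library can change, was 3.89 and 3.43 in KO+DNMT3A, 2.92 and 2.06 in KO, and 1.75 and 2.51 in WT. Both KO+DNMT3A libraries were above the other 4, replicate 2 by a narrow margin over KO replicate 1. KO+DNMT3A replicate 2 holds 183 fragments of Mt1 and 55 of Mt2, and KO replicate 1 holds 170 and 60. Whether this margin exceeds counting error was not tested. The ratio was examined after the values were seen and was not tested; with 2 libraries a group an exact permutation test could not have reached 0.05. In WT replicate 1 it rests on 17 fragments of Mt1 and 10 of Mt2.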
